A study of Rattus norvegicus with 18 samples.

Results

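Rab small GTPases were followed at the RNA level in rat XENP cells, an extraembryonic endoderm precursor line derived from the blastocyst, in 6 culture conditions. Rows of the gene table were taken as members when their symbol was Rab followed by a number, with or without a letter ending, and when their counts summed to at least 50 over the 18 libraries. Of 28695 rows, 66 matched the symbol pattern and 56 reached the minimum. Of these 56, 46 encode Rab GTPases and 10 encode proteins named after a Rab that they bind or regulate, and the 10 are described apart. Rab42 with 55 counts, Rab37 with 67 and Rab32 with 82 stood just inside the minimum, and Rab7b with 43, Rab17 with 39 and Rab27b with 17 just outside it. A low-count filter kept 53 members for testing, 43 of them GTPases, and removed Rab32, Rab37 and Rab42. Of the 43, 5 came into the tests only through the vesicle libraries, where they are highest. Outside the vesicles Rab25 had 10 of its 545 counts, Rab3b 3 of 97, Rab19 13 of 116 and Rab40b 20 of 89, all under the minimum of 50, and Rab3a had 60 of 192, which would not have passed the low-count filter. A higher level in vesicles is therefore built into the choice of these 5, and their differences in comparisons with vesicles are given as values with no test.

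Rab proteins are switches of membrane traffic. Each cycles between a GTP-bound form, held on the membrane of a given compartment, and a GDP-bound form that is carried in the cytosol by GDP dissociation inhibitors. Exchange factors (GEFs) load GTP, GTPase-activating proteins (GAPs) end the active state, and effectors such as motors and tethers read it. Extraembryonic endoderm of the rodent yolk sac is known for heavy endocytosis, large vacuoles and apical and basement membrane secretion, all of which use Rabs.

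The cells came from WKY rat blastocysts, were labelled female and stood between passages 32 and 51. Each condition had 3 libraries. Serum-free vesicles were grown with the GSK3 inhibitor Chir99021 in N2B27 medium, and the growth protocol gives 3 µM of it with 10 ng/ml murine LIF. Serum vesicles were grown with Chir99021 and serum, at a dose the labels do not make clear. Vacuolated cells came from routine medium with 0.5 µM Chir99021 and a sort on a property the labels do not give, from routine medium with 14% BCS, which the labels do not spell out, or from routine medium with 0.5 µM Chir99021 and no sort. Normal cells were kept in routine medium alone. These are called here serum-free vesicles, serum vesicles, sorted vacuolated, BCS-vacuolated, CHIR-vacuolated and normal cells. The labels number the 3 samples of a group and give each a different passage, without naming separate derivations or cultures. Passages were 32, 35 and 42 in serum-free vesicles, 32, 35 and 49 in serum vesicles and 37, 40 and 51 in normal cells. The p-values below measure the spread between samples at different passages, which need not cover the spread between separate derivations.

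Libraries held 4050722 to 12074939 strand-specific counts. The most abundant pair of genes took 37.6 to 61.1% of a library. Members are given as CPM, the usual depth-scaled count, after TMM normalisation. The values hold no gene length, so levels are compared between samples and not between genes. Summed over the GTPases, the members reached 1612 to 1769 CPM in serum-free vesicles, 1392 to 1468 CPM in serum vesicles, 1432 to 1510 CPM in sorted, 1342 to 1418 CPM in BCS- and 1255 to 1343 CPM in CHIR-vacuolated cells, and 1229 to 1368 CPM in normal cells. The sum in serum vesicles thus overlapped those in sorted and BCS-vacuolated cells, and the serum-free vesicles were highest. Correlations of log2 CPM between libraries of a group, across genes, ran from 0.937 to 0.986 and were lowest among the vesicles. All 10 listed extraembryonic endoderm markers were detected, at a summed 3756 to 4146 CPM in serum-free vesicles, 3029 to 3495 CPM in serum vesicles, 6528 to 8613 CPM in sorted, 6549 to 8663 CPM in BCS- and 5054 to 6069 CPM in CHIR-vacuolated cells, and 5146 to 5544 CPM in normal cells. Lama1, Col4a1 and Sparc made up most of that sum, and a pair of transcription factors of the list, Pou5f1 and Gata6, stood far lower in vesicles. Pou5f1 averaged 0.746 CPM in serum-free vesicles, with 0 in a library, 1.25 CPM in serum vesicles and 118 CPM in normal cells, and Gata6 averaged 15.8, 13.8 and 80.1 CPM in the same groups. Dab2, an endocytic adaptor, averaged 127, 42.2 and 195 CPM. Pdgfra (293, 244 and 197 CPM) and Sox7 (5.11, 4.09 and 3.82 CPM) averaged higher in vesicles than in normal cells. All other markers of that list averaged lower in both vesicles. The 6 trophoblast markers summed to 19.1 to 28.2 CPM in serum-free vesicles, 22.0 to 32.4 CPM in serum vesicles and 7.87 to 10.2 CPM in normal cells, with Hand1 at 0 in all groups. Within that list Cdx2 averaged 22.2 CPM in serum-free vesicles and 25 CPM in serum vesicles with 0 counts in normal cells, while Eomes averaged 0.969, 0.854 and 8.25 CPM in the same groups. Fibroblast markers summed to at most 15.4 CPM in any library, with 3 of 8 at 0 throughout, and the 6 epiblast and 6 blood and immune markers each to at most 5.83 CPM. Mitochondrially encoded genes took 7.11 to 9.43% of the counts outside the top pair in serum-free vesicles, 7.91 to 9.31% in serum vesicles, 6.76 to 8.91% after the sort, 3.29 to 4.32% with BCS, 2.88 to 4.08% in CHIR-vacuolated cells and 3.13 to 3.38% in normal cells. The part of cell identity and of mitochondrial RNA in the differences below was not tested. In bulk RNA, fewer cells of a type and less RNA per cell cannot be told apart.

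Most calls among the Rab members, as over all genes, came from comparisons of vesicles with other cells. A test of any difference among the 6 groups (edgeR's quasi-likelihood test, adjusted p under 0.05) called 41 of 53 members, which is 77.4%, against 79% of all 11503 genes tested. Without the 5 members that came in through vesicles it called 36 of 48, which is 75%, among them all 7 recycling GTPases and all 10 partner proteins, 5 of 6 early endosome GTPases, 2 of 3 of exocytosis and 5 of 10 of the ER and Golgi. In serum-free vesicles against normal cells, 30 of the 48 were called, 20 higher and 10 lower, and 35 of all 53, where 57.7% of all genes were called, 30.2% higher and 27.5% lower. In serum vesicles against normal cells, 24 of the 48 were called, 17 higher and 7 lower, and 29 of all 53, where 60.4% of all genes were called, 31.7% higher and 28.8% lower. The median log2 fold change of the 48 members was 0.27 in serum-free vesicles and 0.26 in serum vesicles, beside 0.03 and 0.06 over all genes tested. These comparisons share the normal libraries, so their counts are not independent. The all-gene shares and medians, here and below, were not trimmed like the 48, and hold any genes that passed only through vesicles.

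**Figure D1:**
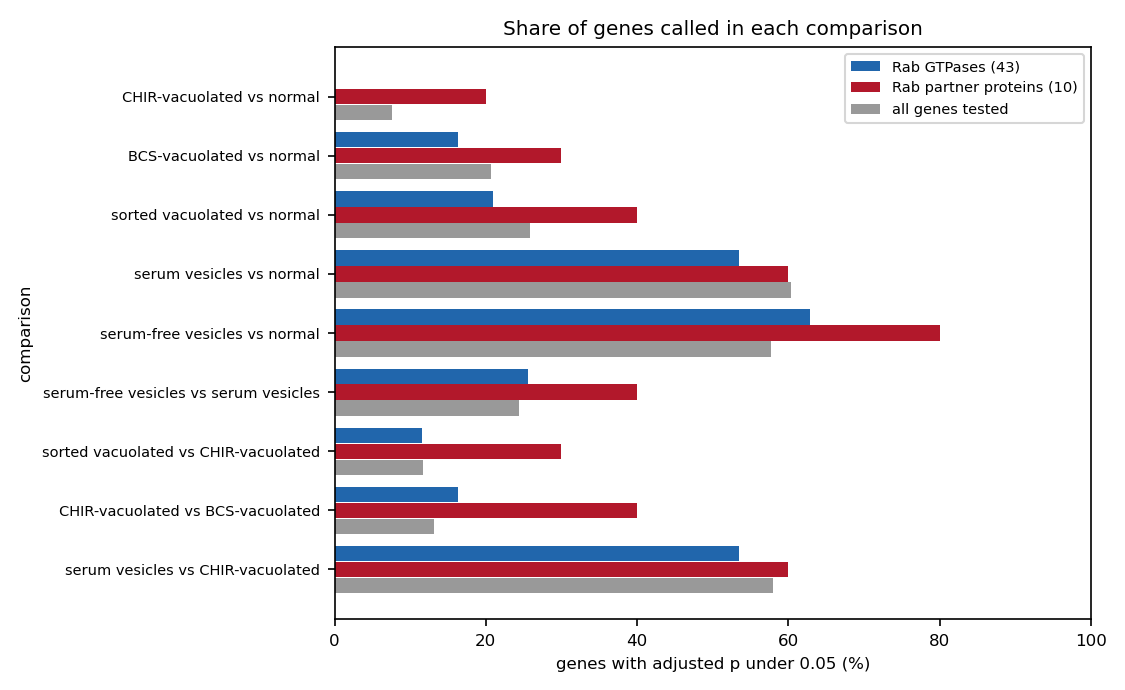
Share of genes with an adjusted p under 0.05, in percent (horizontal axis, from 0), in each of the 9 comparisons, for the 43 tested Rab GTPases, the 10 partner proteins and all 11503 genes tested (bars). Shares were highest where vesicles were compared with normal or CHIR-vacuolated cells, among the members as among all genes. The 43 GTPases include the 5 tested only because of their vesicle counts. Without these 5 the GTPase share against normal cells was 57.9% in serum-free vesicles (62.8% with them) and 47.4% in serum vesicles (53.5%).

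**Figure D2:**
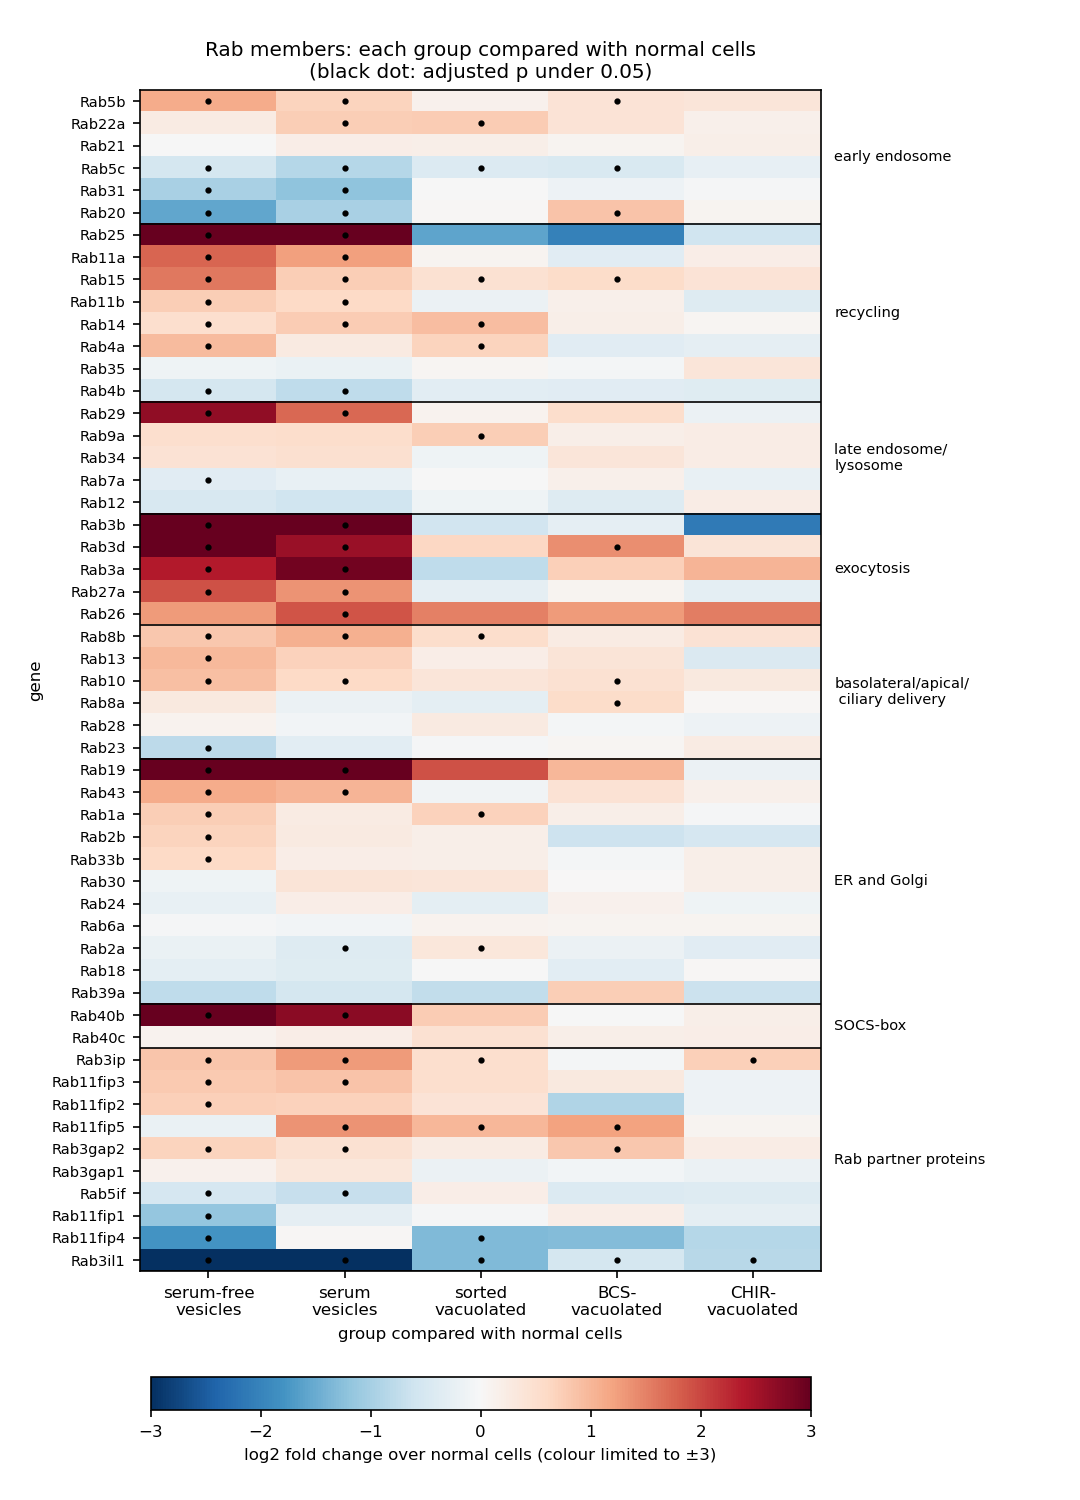
Log2 fold change over normal cells (colour, limited to -3 and 3) of the 53 tested members (rows, grouped by role) in the 5 other groups (columns), with a black dot where adjusted p was under 0.05. The vesicle columns hold 35 and 29 dots, 5 of them in each on Rab25, Rab3b, Rab19, Rab40b and Rab3a, which were tested only because of their vesicle counts.

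Among 7 recycling GTPases, Rab25 left out, 5 rose and 1 fell in serum-free vesicles, and 4 rose and 1 fell in serum vesicles, against normal cells. Over all genes 57.7% were called in serum-free and 60.4% in serum vesicles. Rab11a, which governs the recycling endosome and apical delivery, had the smallest p of all members in the test of any difference. It stood at 81.3, 82.6 and 75.7 CPM in serum-free vesicles and at 57.8, 57.3 and 53 CPM in serum vesicles. The other libraries held 26.4, 22.9 and 26.7 CPM (sorted vacuolated), 16.8, 22 and 17.2 CPM (BCS-vacuolated), 28.6, 29.1 and 25 CPM (CHIR-vacuolated) and 24.4, 22.1 and 25 CPM (normal). All 6 vesicle libraries lay above the other 12, and the serum-free ones lay above the serum ones without overlap. Its log2 fold change over normal cells was 1.74 ± 0.14, adjusted p = 8.79e-11 in serum-free vesicles (3.35-fold) and 1.23 ± 0.14, adjusted p = 3.11e-08 in serum vesicles (2.35-fold), where the error after ± is the standard error. Between the vesicles the log2 fold change, serum-free over serum, was 0.51 ± 0.13, adjusted p = 0.00581.

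Rab25, a relative of Rab11 expressed mainly in epithelia, was nearly restricted to the vesicle libraries in read counts. It held 15.6, 36.1 and 11.2 CPM in serum-free vesicles and 1.52, 4.31 and 4.15 CPM in serum vesicles. The 9 vacuolated libraries reached at most 0.273 CPM, from 2 counts over the sorted, 1 over the BCS- and 3 over the CHIR-vacuolated libraries, and normal cells held 0, 4 and 0 counts. Serum-free replicate 2 was the highest library, and the 3 serum-free libraries all exceeded the 3 serum ones. Against normal cells the fitted log2 fold change was 6.40 in serum-free and 3.73 in serum vesicles, values with no test since Rab25 came into the set through these libraries. These sizes rest on the single normal library with counts: without normal replicate 2 they were fitted at 10.28 and 7.59, which are not exact with 0 counts left in normal cells, and without normal replicate 3 at 5.75 and 3.08. Serum-free over serum vesicles gave a fitted 2.67, and without serum-free replicate 2 it was 2.02, with 5.74 for serum-free vesicles over normal cells. Over CHIR-vacuolated cells, serum vesicles held 59 counts against 3, a ratio of 22.0 with a 95% counting interval of 7.17 to 109.7.

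The 250 bases before the annotated start (RefSeq, GRCr8) are shown for Rab11a, which led the any-difference test, for Rab25, which was read mostly in vesicles, and for Rab5b and Rab5c, described next, which moved in opposite directions. The letters read 5′ to 3′ on the gene's strand, which is the minus strand for all 4 genes, and end at the base before the start. Capitals mark the only match found to the searched motifs, AACCNGTT in Rab25, whose first base lies 77 bases before the start. The regions are chr8:74141685-74141934 for Rab11a, chr2:176304222-176304471 for Rab25, chr7:1712737-1712986 for Rab5b and chr10:86166450-86166699 for Rab5c.
Rab11a: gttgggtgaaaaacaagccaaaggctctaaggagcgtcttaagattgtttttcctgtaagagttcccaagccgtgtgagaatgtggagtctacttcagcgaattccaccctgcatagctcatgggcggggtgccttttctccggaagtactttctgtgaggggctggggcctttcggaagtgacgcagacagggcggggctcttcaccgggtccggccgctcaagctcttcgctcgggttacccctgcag
Rab25: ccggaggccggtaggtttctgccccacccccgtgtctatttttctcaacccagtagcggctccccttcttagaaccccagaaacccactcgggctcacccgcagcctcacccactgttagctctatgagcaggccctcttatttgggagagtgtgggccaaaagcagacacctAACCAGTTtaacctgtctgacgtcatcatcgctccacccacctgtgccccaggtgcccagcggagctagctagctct
Rab5b: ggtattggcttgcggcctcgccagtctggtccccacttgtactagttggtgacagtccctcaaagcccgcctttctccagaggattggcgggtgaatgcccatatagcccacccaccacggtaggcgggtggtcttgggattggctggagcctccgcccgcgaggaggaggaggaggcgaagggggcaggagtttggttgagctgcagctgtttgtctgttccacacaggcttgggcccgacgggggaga
Rab5c: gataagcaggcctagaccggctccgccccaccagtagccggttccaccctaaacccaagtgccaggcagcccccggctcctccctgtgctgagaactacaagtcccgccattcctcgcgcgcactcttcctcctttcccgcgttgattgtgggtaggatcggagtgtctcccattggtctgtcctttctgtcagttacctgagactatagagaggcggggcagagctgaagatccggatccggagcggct
The 4 regions held 13, 9, 12 and 15 CpG dinucleotides at 56.0, 58.4, 62.4 and 60.4% G and C, in the order printed. The median over the 46 members with a RefSeq promoter was 17 CpG and 63% G and C, beside 6 CpG and 52% over all 27457 promoters of the table.

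Rab15, which acts in receptor recycling from endosomes, stood at 65.3, 77.1 and 57.1 CPM in serum-free vesicles and at 39.7, 34.5 and 37.8 CPM in serum vesicles. It stood at 34.2, 29.3 and 27.9 CPM in sorted vacuolated, 35.4, 27.4 and 36 CPM in BCS-vacuolated, 27.8, 28.1 and 33.1 CPM in CHIR-vacuolated and 25.1, 18.2 and 23.3 CPM in normal cells. The serum-free vesicles were the highest group without overlap and the normal cells the lowest. Rab15 rose in serum-free vesicles (log2 fold change 1.58 ± 0.16, adjusted p = 7.63e-09) and in serum vesicles (0.74 ± 0.16, adjusted p = 0.000326), and was higher in serum-free than in serum vesicles (0.83 ± 0.15, adjusted p = 0.000384).

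Rab4a and Rab4b, both of which serve fast recycling from early endosomes, moved apart. Rab4a held 31.4, 22 and 19.9 CPM in serum-free vesicles, 14.1, 14.9 and 16.1 CPM in serum vesicles and 11.1, 15.4 and 11.2 CPM in normal cells. Its levels in the vacuolated cells were 19.7, 18.2 and 22 CPM with the sort, 8.48, 10.5 and 10.5 CPM with BCS and 8.55, 11.4 and 11.2 CPM with Chir99021 alone. Serum-free vesicles and sorted cells thus lay above normal cells without overlap, and serum vesicles overlapped them. Rab4b held 10.9, 11.3 and 11.3 CPM in serum-free vesicles, 10.8, 9.18 and 8.76 CPM in serum vesicles and 15.4, 15.4 and 17.9 CPM in normal cells. In the vacuolated cells it held 15.8, 10.5 and 12.6 CPM with the sort, 8.99, 15.6 and 13.6 CPM with BCS and 12.6, 12.4 and 13 CPM with Chir99021 alone. All vesicle libraries lay below all normal ones for Rab4b. In serum-free vesicles the log2 fold change over normal cells was 0.95 ± 0.20, adjusted p = 0.000203 for Rab4a and -0.54 ± 0.20, adjusted p = 0.0256 for Rab4b. In serum vesicles Rab4b fell as well (-0.75 ± 0.21, adjusted p = 0.00307), while Rab4a had 0.26 ± 0.20, adjusted p = 0.272. The Rab4b call in serum-free vesicles ended without normal replicate 3 (log2 fold change -0.46, adjusted p = 0.1), without serum-free replicate 1 (-0.52, 0.0537) or 2 (-0.55, 0.055), with no low-count filter (adjusted p = 0.0585) and with the most abundant pair of genes removed and libraries thinned to equal totals (0.105). Rab4a took 63.8 to 74.2% of the summed Rab4a and Rab4b CPM in serum-free vesicles, 56.7 to 64.8% in serum vesicles and 38.5 to 50% in normal cells.

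Rab11b, the close relative of Rab11a, held 38.6, 40.3 and 52.5 CPM in serum-free vesicles, 40.9, 32.3 and 47.7 CPM in serum vesicles and 26.7, 29.4 and 23.2 CPM in normal cells. In the vacuolated cells it held 18.4, 27.3 and 24.5 CPM with the sort, 30.9, 31.2 and 26.2 CPM with BCS and 22.3, 19 and 19 CPM with Chir99021 alone. The 6 vesicle libraries lay above the other 12, and serum-free and serum vesicles overlapped. It rose in serum-free (0.74 ± 0.17, adjusted p = 0.000793) and serum vesicles (0.60 ± 0.18, adjusted p = 0.00452). Rab14, which works between the Golgi and endosomes, averaged 69.3 ± 19.9 CPM in serum-free vesicles, 83.1 ± 11.6 CPM in serum vesicles, 93.2 ± 12.3 CPM in sorted vacuolated and 49 ± 3.32 CPM in normal cells (mean ± SD, n = 3, here and below). It rose in serum vesicles (0.76 ± 0.17, adjusted p = 0.000418). In serum-free vesicles (0.50 ± 0.17, adjusted p = 0.0133) its libraries overlapped normal cells and the call ended without serum-free replicate 2 (0.28, adjusted p = 0.168) or normal replicate 1 (0.45, 0.0563). Rab35, which drives fast recycling to the plasma membrane, averaged 49.4 ± 2.67, 47 ± 5.20 and 53.9 ± 4.39 CPM in serum-free vesicles, serum vesicles and normal cells and passed in neither comparison with normal cells.

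**Figure D3:**
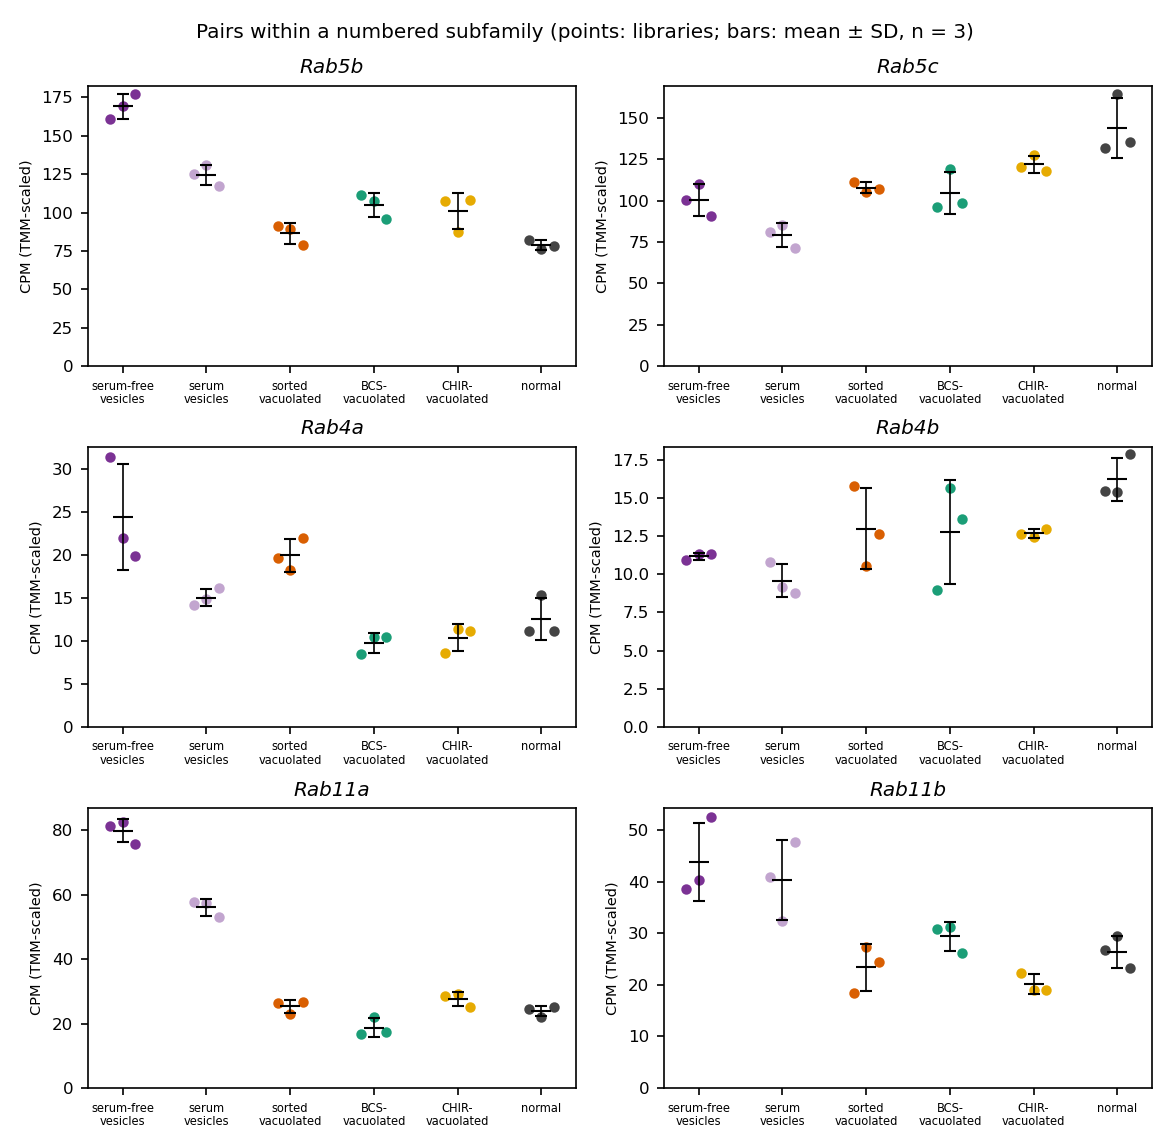
Level in CPM (vertical axes, from 0) of Rab5b and Rab5c, Rab4a and Rab4b, and Rab11a and Rab11b in each library (points) with the group mean and SD (bars, n = 3), vesicles at the left and normal cells at the right. Rab5b was highest in the vesicles, where Rab5c stood below all normal libraries, and Rab11a separated the 6 vesicle libraries from the other 12.

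Of the 6 early endosome GTPases, 1 rose and 3 fell in serum-free vesicles and 2 rose and 3 fell in serum vesicles, against normal cells, beside 57.7 and 60.4% of all genes called in that order. Rab5b and Rab5c encode closely related proteins of early endosome fusion, and Rab5b rose in both vesicles and in BCS-vacuolated cells while Rab5c fell in the same comparisons. Rab5b held 161, 169 and 177 CPM in serum-free vesicles, 125, 131 and 117 CPM in serum vesicles and 82.4, 76.2 and 78 CPM in normal cells. In the vacuolated cells it held 91.1, 89.2 and 78.8 CPM with the sort, 111, 107 and 95.8 CPM with BCS and 107, 87.3 and 108 CPM with Chir99021 alone. The order of Rab5b was serum-free vesicles, then serum vesicles, then all other libraries, with no overlap between these sets. Rab5c held 101, 110.1 and 91 CPM in serum-free vesicles, 81.2, 85.3 and 71.2 CPM in serum vesicles and 132, 165 and 135 CPM in normal cells. In the vacuolated cells it held 112, 105 and 107 CPM with the sort, 95.8, 119 and 98.8 CPM with BCS and 120.1, 128 and 118 CPM with Chir99021 alone. Normal cells had the 3 highest Rab5c libraries of the series. For Rab5b the log2 fold change over normal cells was 1.10 ± 0.12, adjusted p = 1.50e-08 in serum-free and 0.66 ± 0.12, adjusted p = 2.77e-05 in serum vesicles. For Rab5c it was -0.52 ± 0.12, adjusted p = 0.000823 in serum-free and -0.86 ± 0.12, adjusted p = 1.86e-06 in serum vesicles. Rab5b took 60.6 to 66.1% of the summed Rab5b and Rab5c CPM in serum-free vesicles, 60.5 to 62.2% in serum vesicles, 42.5 to 45.9% in sorted, 47.4 to 53.8% in BCS- and 40.6 to 47.9% in CHIR-vacuolated cells, and 31.6 to 38.5% in normal cells. Those shares did not overlap between normal cells and any other group.

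Rab20, known for phagosome maturation, was lowest in vesicles and highest with BCS. It held 3.39, 5.95 and 6.41 CPM in serum-free vesicles, 7.61, 7.10 and 10.1 CPM in serum vesicles and 14.5, 19.6 and 13.8 CPM in normal cells. The vacuolated cells held 18.7, 15 and 15.6 CPM with the sort, 28.7, 23.1 and 34.7 CPM with BCS and 15.1, 19.3 and 16.5 CPM with Chir99021 alone. No vesicle library reached the lowest normal one, and each BCS library exceeded the highest normal one. The log2 fold change over normal cells was -1.56 ± 0.23, adjusted p = 3.83e-06 in serum-free vesicles, -0.96 ± 0.23, adjusted p = 0.000843 in serum vesicles and 0.86 ± 0.21, adjusted p = 0.00465 in BCS-vacuolated cells. Rab31, which acts between the trans-Golgi network and early endosomes, averaged 14.5 ± 6.24 CPM in serum-free vesicles, 12.6 ± 0.466 CPM in serum vesicles and 29.2 ± 2.41 CPM in normal cells, and fell in both (-0.98 ± 0.24, adjusted p = 0.00133 and -1.21 ± 0.25, adjusted p = 0.000215, in that order of the vesicles). Rab22a, of early endosomes and recycling, averaged 16.6 ± 4.71, 23.5 ± 3.32 and 14.1 ± 2.53 CPM in serum-free vesicles, serum vesicles and normal cells, and rose in serum vesicles (0.73 ± 0.19, adjusted p = 0.0019) but did not pass in serum-free ones. Rab21, which carries integrins through early endosomes, averaged 20.6 ± 1.85, 23.8 ± 4.44 and 20.7 ± 3.29 CPM in those groups and passed no comparison.

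Of the GTPases of regulated exocytosis, Rab27a and Rab3d rose in both vesicles. Rab26 was called higher in serum vesicles as well, but its direction depended on strand (-1.93 on both strands) and the call ended without normal replicate 2 (adjusted p = 0.0638). That makes 2 of 3 called in serum-free and 3 of 3 in serum vesicles, beside 57.7 and 60.4% of all genes, and leaves out Rab3a and Rab3b, which were tested only because of their vesicle counts. Rab27a, which docks secretory and lysosome-related organelles, held 32.4, 34 and 37.7 CPM in serum-free vesicles and 26.3, 21 and 22.8 CPM in serum vesicles. Elsewhere it held 8.30, 6.15 and 8.28 CPM (sorted vacuolated), 7.80, 12.4 and 8.68 CPM (BCS-vacuolated), 8.27, 8.45 and 5.74 CPM (CHIR-vacuolated) and 7.90, 12.3 and 7.57 CPM (normal). Every vesicle library lay above every other one. The log2 fold change over normal cells was 1.92 ± 0.22, adjusted p = 4.67e-08 in serum-free and 1.35 ± 0.22, adjusted p = 1.03e-05 in serum vesicles. Rab3d, of secretory granules, held 14.7, 13.8 and 16.5 CPM in serum-free vesicles and 8.98, 8.91 and 9.45 CPM in serum vesicles. Its other libraries held 2.07, 2.68 and 2.21 CPM (sorted vacuolated), 4.75, 3.52 and 3.76 CPM (BCS-vacuolated), 2.66, 0.690 and 2.32 CPM (CHIR-vacuolated) and 2.15, 0.768 and 1.51 CPM (normal). For Rab3d too, vesicles stood above all other libraries, serum-free above serum. In the direct comparison of the vesicles, edgeR did not call Rab3d, while DESeq2 did. Its log2 fold change over normal cells was 3.32 ± 0.34, adjusted p = 1.04e-08 in serum-free (9.98-fold) and 2.6 ± 0.35, adjusted p = 7.21e-07 in serum vesicles (6.04-fold).

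Rab3b, another Rab3 paralog of secretion, had its highest level in serum vesicles. It held 0.941, 1.09 and 0.699 CPM in serum-free vesicles and 1.83, 4.87 and 6.22 CPM in serum vesicles, and 1 count at most over the 3 libraries of each other group. Its ratio to normal cells, which had 1 count, was 15.7 in serum-free vesicles (20 counts, 95% counting interval 2.51 to 651) and 71.1 in serum vesicles (74 counts, 12.4 to 2846). Serum vesicles were at least 27.6-fold higher than CHIR-vacuolated cells, which had 0 counts, taking 3 counts over the group as the floor. Serum-free over serum vesicles had a fitted log2 fold change of -2.20, and -1.87 without serum replicate 3. Rab3b reached the 50-count minimum only through the serum vesicles, so none of these differences is tested. Rab3a, the Rab3 of synaptic vesicles, averaged 2.85 ± 1.10 CPM in serum-free vesicles, 3.99 ± 1.40 CPM in serum vesicles and 0.528 ± 0.322 CPM in normal cells, with fitted log2 fold changes of 2.39 (2.98 without normal replicate 1) and 2.89, again with no test. In RefSeq GRCr8 it overlaps Mpv17l2, and 71.0% of its both-strand counts in normal cells lay on the other strand. Rab37, of secretory granules, was not tested and had 18 counts in serum-free vesicles, 26 in serum vesicles and 3 in normal cells, ratios of 4.71 (1.38 to 25) and 8.33 (2.55 to 43).

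Rab26, a secretory granule GTPase, was called higher in serum vesicles (1.88 ± 0.63, adjusted p = 0.0128) on 38 counts against 10 in normal cells. Without normal replicate 2 this was 1.34 (adjusted p = 0.0638), and without normal replicate 3 it was 2.47. In serum-free vesicles its log2 fold change was 1.28 ± 0.65, adjusted p = 0.0959. The strand used held few of its reads: on the other strand it had 465 counts in serum-free vesicles, 201 in serum vesicles and 835 in normal cells. When both strands were counted together the log2 fold change was -1.16 in serum-free and -1.93 in serum vesicles, so the direction for Rab26 depends on strand.

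**Figure D4:**
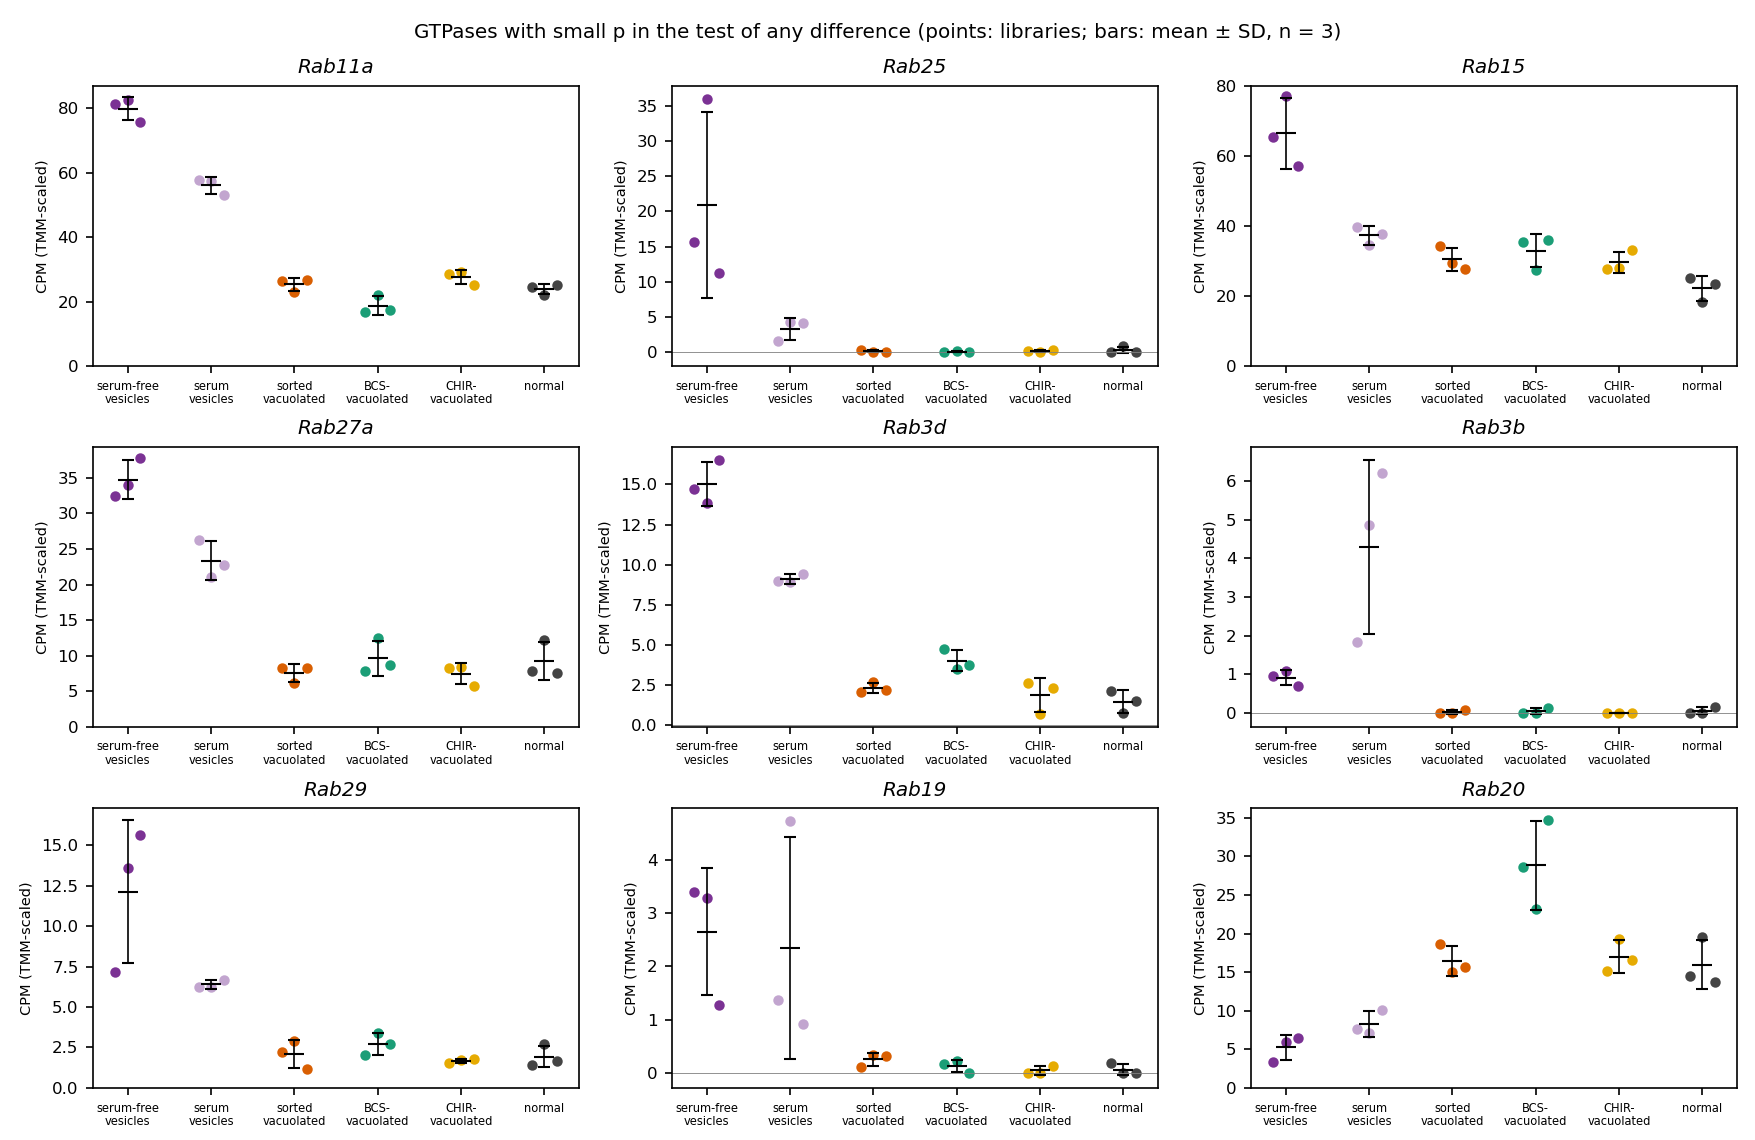
Level in CPM (vertical axes) of 9 GTPases among the 16 members with the smallest p in the test of any difference, by library (points) with group mean and SD (bars, n = 3), vesicles at the left and normal cells at the right. Rab11a, Rab27a, Rab3d and Rab29 stood higher in all 6 vesicle libraries than in the other 12, and Rab20 stood lower. Rab25 was higher there too. Rab25, Rab3b and Rab19 were tested only because of their vesicle counts, so a higher level in vesicles is built into their choice. The share of all genes that separated the libraries in this way was not counted.

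In the late endosome and lysosome class, 1 of 5 tested GTPases rose in both vesicles and 1 fell in serum-free ones, 40% and 20% called beside 57.7 and 60.4% of all genes. The one that rose was Rab29, a protein of the Golgi and lysosomes that recruits the kinase LRRK2. It held 7.16, 13.6 and 15.6 CPM in serum-free vesicles and 6.24, 6.26 and 6.69 CPM in serum vesicles. Other groups held 2.19, 2.91 and 1.18 CPM (sorted vacuolated), 2.04, 3.41 and 2.72 CPM (BCS-vacuolated), 1.54, 1.72 and 1.78 CPM (CHIR-vacuolated) and 1.44, 2.69 and 1.66 CPM (normal). The lowest vesicle library exceeded the highest of the 12 others. Its log2 fold change over normal cells was 2.67 ± 0.36, adjusted p = 7.17e-07 in serum-free and 1.73 ± 0.37, adjusted p = 0.000309 in serum vesicles. Rab7a, the main GTPase of late endosome and lysosome fusion, averaged 86.6 ± 3.55 CPM in serum-free vesicles, 93.9 ± 7.58 CPM in serum vesicles and 110.0 ± 7.11 CPM in normal cells. It was lower in serum-free vesicles (-0.34 ± 0.11, adjusted p = 0.00905), a call lost when no low-count filter was used (adjusted p = 0.0638), and had -0.23 ± 0.11, adjusted p = 0.072 in serum vesicles. Rab9a, of retrieval to the Golgi, averaged 20.8 ± 6.19, 21.1 ± 5.24 and 14.9 ± 3.12 CPM in serum-free vesicles, serum vesicles and normal cells. Rab34, of macropinosomes and cilia, averaged 10.0 ± 1.02, 10.2 ± 2.66 and 7.35 ± 0.684 CPM, and Rab12, of receptor delivery to lysosomes, 1.68 ± 0.900, 1.54 ± 1.45 and 2.48 ± 0.727 CPM in the same groups. None of these 3 passed in vesicles against normal cells. Rab32, of lysosome-related organelles, was not tested and had 21, 27 and 6 counts over the libraries of those groups.

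Among 6 GTPases of delivery to the plasma membrane and cilium, 3 rose and 1 fell in serum-free vesicles and 2 rose in serum vesicles, which is 66.7 and 33.3% called beside 57.7 and 60.4% of all genes. Rab10, which serves basolateral delivery and, in Drosophila, secretion of basement membrane, averaged 116 ± 25 CPM in serum-free vesicles, 92.9 ± 6.54 CPM in serum vesicles and 61.9 ± 5.16 CPM in normal cells. It rose in both (0.91 ± 0.14, adjusted p = 4.82e-06 and 0.59 ± 0.14, adjusted p = 0.000788, in that order). Rab8b, of delivery to the surface and cilium, averaged 47.3 ± 7.39, 56.6 ± 8.15 and 27.1 ± 1.87 CPM in the same groups and rose in both (0.80 ± 0.16, adjusted p = 0.000147 and 1.06 ± 0.16, adjusted p = 3.61e-06). Its paralog Rab8a averaged 113 ± 13, 81.5 ± 6.85 and 92.6 ± 2.54 CPM and passed in neither. Rab13, of tight junction protein traffic, rose in serum-free vesicles (0.98 ± 0.31, adjusted p = 0.00851) with libraries that overlapped normal cells, and the call ended without normal replicate 1 (0.81, adjusted p = 0.0533) or 3 (0.75, 0.0667). Rab23, a regulator of cilia and Hedgehog signalling, fell in serum-free vesicles (-0.79 ± 0.32, adjusted p = 0.0387). The call was lost on leaving out normal replicate 2 (-0.65, adjusted p = 0.139) or 3 (-0.82, 0.0692) or serum-free replicate 1 (-0.54, 0.166) or 2 (-0.89, 0.0503). Rab28, of the cilium, averaged 17.8 ± 1.99, 15.5 ± 5.39 and 16.7 ± 1.20 CPM and passed no comparison.

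Of 10 GTPases of the ER and Golgi, Rab19 left out, 4 rose in serum-free vesicles, and 1 rose and 1 fell in serum vesicles, against normal cells. These are 40 and 20% of the class, beside 57.7 and 60.4% of all genes called. Rab1a, which moves cargo between the ER and the Golgi, held 235, 252 and 269 CPM in serum-free vesicles and 189, 186 and 157 CPM in serum vesicles. It held 252, 234 and 238 CPM in sorted vacuolated, 155, 186 and 169 CPM in BCS-vacuolated, 149, 152 and 139.5 CPM in CHIR-vacuolated and 142, 153 and 156 CPM in normal cells. Serum-free vesicles and sorted cells occupied the same high range, above all other libraries. Rab1a rose in serum-free vesicles (0.75 ± 0.11, adjusted p = 3.26e-06) and had 0.24 ± 0.11, adjusted p = 0.0629 in serum vesicles, against normal cells. Rab19, a Golgi GTPase, held 3.39, 3.28 and 1.28 CPM in serum-free vesicles and 1.37, 4.73 and 0.922 CPM in serum vesicles, with totals of 56 and 47 counts. The other totals were 8 counts in sorted, 3 in BCS- and 1 in CHIR-vacuolated cells and 1 in normal cells. Its ratio to normal cells was 44.0 in serum-free vesicles (7.58 to 1769) and 45.2 in serum vesicles (7.72 to 1821), with 95% counting intervals. Its place among the members rests on the vesicle counts, so the difference is not tested.

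Rab43, also of the Golgi, averaged 5.41 ± 1.25, 5.07 ± 1.94 and 2.58 ± 1.24 CPM in serum-free vesicles, serum vesicles and normal cells. It was called higher in both (1.11 ± 0.36, adjusted p = 0.0111 and 1.01 ± 0.37, adjusted p = 0.0213), but without normal replicate 3 these became 0.75 (adjusted p = 0.0964) and 0.64 (0.155). The call in serum-free vesicles also ended without serum-free replicate 3 (0.94, 0.0527), and that in serum vesicles without serum replicate 1 (0.63, 0.189) and with only the groups compared in the fit (0.074). Rab33b, of the Golgi and autophagosome formation, rose in serum-free vesicles (0.60 ± 0.17, adjusted p = 0.00365). Rab2a, of retrograde traffic to the ER, averaged 61.1 ± 4.10, 52.9 ± 5.57 and 69.8 ± 4.55 CPM and fell in serum vesicles (-0.40 ± 0.13, adjusted p = 0.00909). Rab2b, its paralog, was called higher in serum-free vesicles (0.67 ± 0.26, adjusted p = 0.0283), which ended under 4 of the 6 single-library omissions, those of normal replicates 1 and 3 and serum-free replicates 1 and 3 (adjusted p 0.0696 to 0.126), and under 3 other settings. Rab6a, which acts within and out of the Golgi, averaged 87.4 ± 1.52, 83.5 ± 1.21 and 88.9 ± 6.75 CPM and passed no comparison, nor did Rab18 of lipid droplets, Rab30 and Rab39a of the Golgi, or Rab24 of autophagy. For Rab24, 87.2 to 94.6% of both-strand counts per group lay on the other strand, and its RefSeq neighbours are Prelid1 and Nsd1. Of the ubiquitin ligase adaptors with a SOCS box, Rab40b had 47 counts in serum-free vesicles, 22 in serum vesicles and 3 in normal cells, ratios of 12.3 (3.96 to 61.8) and 7.05 (2.12 to 36.8). It had 20 counts outside the vesicles, under the minimum, so these ratios are not tested. Rab40c averaged 11.4 ± 0.898, 12.2 ± 2.67 and 10.5 ± 2.19 CPM and passed no comparison. Rab42, little studied and not tested, had 7, 23 and 3 counts.

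Among the partner proteins, Rab3il1 was called lower than in normal cells in all 5 other groups, and the related Rab3ip higher in 4 of them. The Rab3il1 call in BCS-vacuolated cells did not hold: it ended without any of normal replicates 1, 2 and 3 or BCS-vacuolated replicates 1 and 3 (adjusted p 0.0534 to 0.166) and with the most abundant pair of genes removed and libraries thinned (0.104). Rab3il1, also known as GRAB, is an exchange factor for Rab3a and Rab8. It held 4.52, 8.01 and 5.24 CPM in serum-free vesicles and 6.39, 5.98 and 2.77 CPM in serum vesicles. Its other libraries held 19.5, 19.9 and 22.5 CPM in sorted, 31.2, 37.8 and 38.2 CPM in BCS- and 29, 31.9 and 26.2 CPM in CHIR-vacuolated cells, and 53.5, 55.1 and 46.5 CPM in normal cells. Normal libraries were above all others, the vacuolated groups lay between, and the vesicles were lowest, without overlap between these 3 sets. Its log2 fold change over normal cells was -3.10 ± 0.21, adjusted p = 7.36e-12 in serum-free vesicles (8.55-fold lower) and -3.29 ± 0.22, adjusted p = 5.60e-12 in serum vesicles (9.81-fold lower). In vacuolated cells it was -1.32 ± 0.18, adjusted p = 1.10e-05 with the sort, -0.53 ± 0.18, adjusted p = 0.0385 with BCS and -0.83 ± 0.18, adjusted p = 0.00422 with Chir99021 alone. Rab3ip, also called Rabin8, activates Rab8 as well. It held 72.5, 75.5 and 66 CPM in serum-free vesicles and 91.4, 106 and 90.4 CPM in serum vesicles. It held 56.9, 47.5 and 65.4 CPM in sorted, 35.8, 39 and 40.1 CPM in BCS- and 60.0, 73.3 and 62.6 CPM in CHIR-vacuolated cells, and 35.9, 42.4 and 41 CPM in normal cells. BCS-vacuolated and normal libraries overlapped and were the 6 lowest of the 18, and serum vesicles lay highest without overlap. The log2 fold change over normal cells was 0.84 ± 0.13, adjusted p = 8.86e-06 in serum-free vesicles, 1.27 ± 0.13, adjusted p = 1.54e-08 in serum vesicles, 0.51 ± 0.13, adjusted p = 0.00631 in sorted and 0.71 ± 0.13, adjusted p = 0.00116 in CHIR-vacuolated cells. The sorted call ended without sorted replicate 3 (0.39, adjusted p = 0.0553) and with the most abundant pair of genes removed and libraries thinned (0.35, 0.0879).

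Rab11 effectors of the FIP family, which tie Rab11 vesicles to motors and tethers, differed from each other. Rab11fip1 held 28.6, 35.7 and 41.8 CPM in serum-free vesicles, 55.8, 58.7 and 84.1 CPM in serum vesicles and 79.1, 79.8 and 79.2 CPM in normal cells. In the vacuolated cells it held 71, 80.8 and 78.9 CPM with the sort, 92.1, 83.1 and 98.9 CPM with BCS and 64.3, 65.7 and 69 CPM with Chir99021 alone. The serum-free vesicles were the lowest group without overlap, and serum replicate 3 stood above normal cells while the other 2 serum libraries stood below. It fell in serum-free vesicles (-1.16 ± 0.15, adjusted p = 3.74e-07) and had -0.27 ± 0.15, adjusted p = 0.112 in serum vesicles, against normal cells. Rab11fip5 held 3.20, 3.04 and 2.21 CPM in serum-free vesicles, 8.82, 6.96 and 9.22 CPM in serum vesicles and 3.23, 3.26 and 3.18 CPM in normal cells. In the vacuolated cells it held 6.68, 6.59 and 6.0 CPM with the sort, 6.11, 8.70 and 7.25 CPM with BCS and 2.94, 4.31 and 3.14 CPM with Chir99021 alone. Serum vesicles, sorted and BCS-vacuolated cells formed a higher set that did not overlap the other 3 groups. It rose in serum vesicles (1.36 ± 0.27, adjusted p = 0.000119) and had -0.21 ± 0.29, adjusted p = 0.56 in serum-free ones. Rab11fip3, which binds Rab11 and ARF6, rose in serum-free (0.79 ± 0.20, adjusted p = 0.0014) and serum vesicles (0.85 ± 0.20, adjusted p = 0.000735). Rab11fip4, its paralog, averaged 0.935 ± 0.306, 3.26 ± 0.221 and 3.20 ± 1.43 CPM in serum-free vesicles, serum vesicles and normal cells and fell in serum-free vesicles (-1.78 ± 0.51, adjusted p = 0.00401). Rab11fip2, which links Rab11 to myosin V, was called higher in serum-free vesicles (0.72 ± 0.31, adjusted p = 0.0471), but not without normal replicate 2 (0.41, adjusted p = 0.263) or serum-free replicate 3 (0.44, 0.277) or with only the groups compared in the fit (0.0932). Among the others, Rab3gap2, the noncatalytic subunit of the Rab3 GAP complex, rose in serum-free vesicles (0.67 ± 0.17, adjusted p = 0.0017). Its call in serum vesicles (0.46 ± 0.17, adjusted p = 0.0259) ended without normal replicate 2 (0.27, adjusted p = 0.207), serum replicate 1 (0.41, 0.0806) or serum replicate 3 (0.37, 0.0994), with no low-count filter (0.0501) and with only the groups compared (0.0658). The catalytic subunit Rab3gap1 averaged 27.6 ± 0.995, 31.9 ± 5.72 and 25.2 ± 1.79 CPM and passed in neither. Rab5if, an ER protein named for a link to Rab5, fell in serum-free (-0.50 ± 0.15, adjusted p = 0.00744) and serum vesicles (-0.70 ± 0.15, adjusted p = 0.000406).

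**Figure D5:**
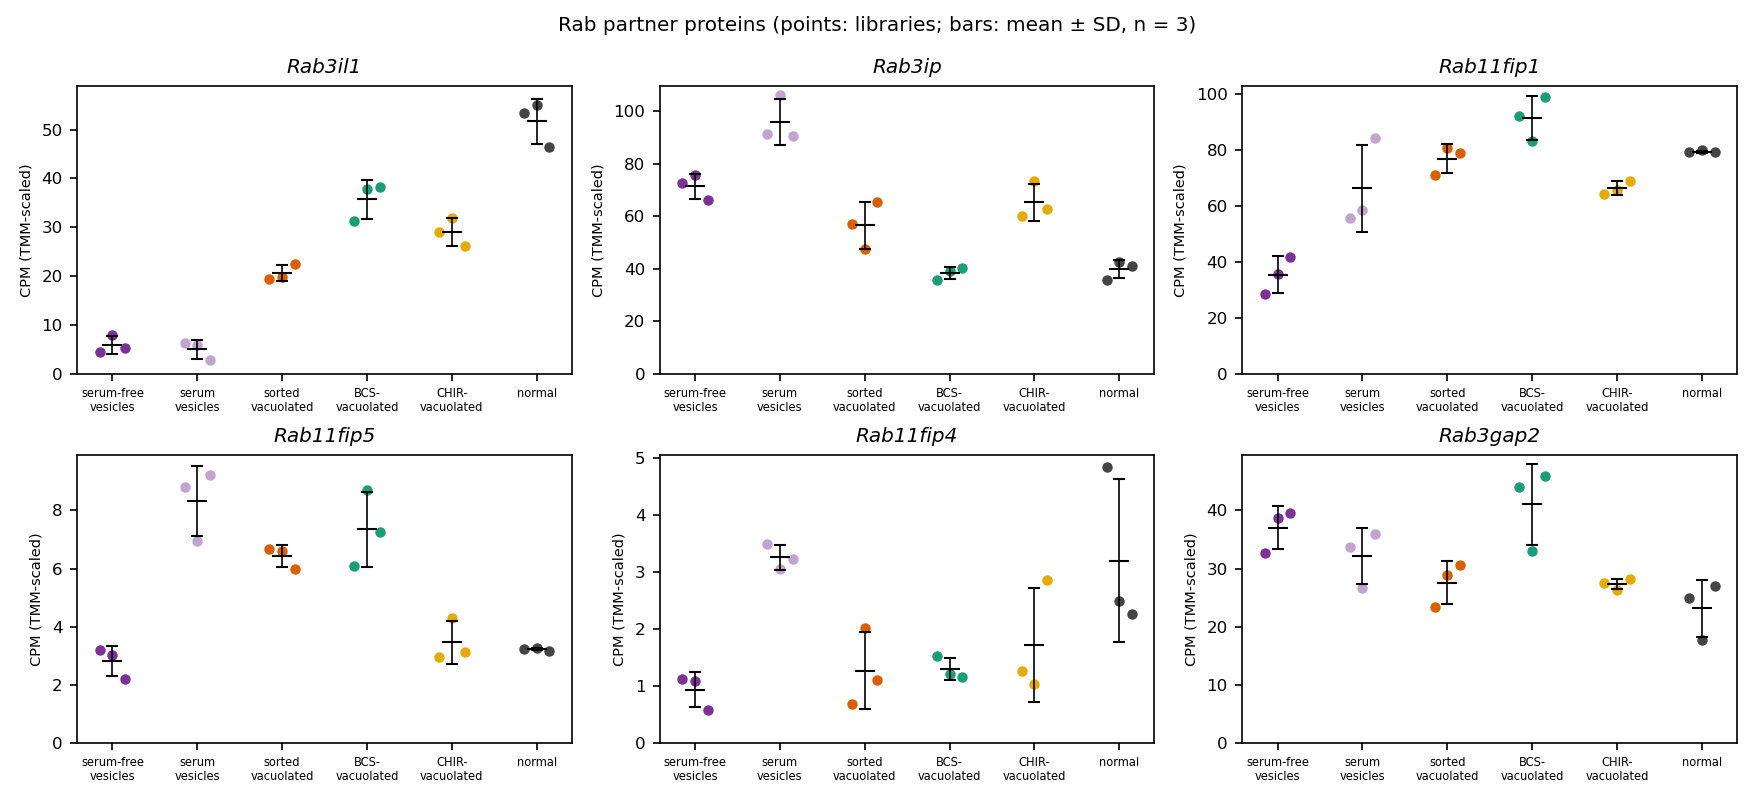
Level in CPM (vertical axes, from 0) of 6 Rab partner proteins by library (points) with group mean and SD (bars, n = 3), vesicles at the left and normal cells at the right. Rab3il1 was lowest in vesicles and highest in normal cells, while Rab3ip was highest in serum vesicles.

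Direct comparison of the vesicles, serum-free over serum, called 13 of the 48 members, 9 higher and 4 lower, and 15 of all 53, where 24.4% of all genes were called, 12.9% higher and 11.5% lower. Of 7 recycling GTPases 3 were higher, namely Rab11a, Rab15 and Rab4a (0.69 ± 0.19, adjusted p = 0.0112). Rab5b (0.44 ± 0.11, adjusted p = 0.00634) and Rab5c (0.34 ± 0.12, adjusted p = 0.0457) of early endosomes were both higher, as were Rab1a (0.50 ± 0.11, adjusted p = 0.00181), Rab8a (0.47 ± 0.13, adjusted p = 0.0133), Rab27a (0.57 ± 0.20, adjusted p = 0.0382) and Rab29 (0.94 ± 0.31, adjusted p = 0.0291). The lower members were 4 partner proteins, Rab11fip1 (-0.89 ± 0.15, adjusted p = 0.000152), Rab11fip4 (-1.81 ± 0.50, adjusted p = 0.0105), Rab11fip5 (-1.57 ± 0.27, adjusted p = 0.00018) and Rab3ip (-0.43 ± 0.13, adjusted p = 0.0183). Leaving out 1 library ended the calls of Rab11fip4, Rab27a, Rab29, Rab3ip, Rab4a, Rab5c and Rab8a for at least 1 of serum vesicle replicates 1, 2 and 3 and serum-free vesicle replicates 1, 2 and 3 (adjusted p 0.0537 to 0.174). With only the vesicle libraries in the fit, 8 of all 53 members were called, beside 11.4% of all genes. Rab11a, Rab15 and Rab1a were called in that fit, while Rab5b was not. Of the 15 calls among all 53 members, 6 held in every alternative.

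CHIR-vacuolated cells had the fewest calls against normal cells. Of 53 members 2 were called, where 7.62% of all genes were, 4.49% higher and 3.13% lower: Rab3ip was higher and Rab3il1 lower, both exchange factors. None of the 43 GTPases was called by edgeR, while 8 had an unadjusted p under 0.05, a level at which all genes were not counted. DESeq2 called 1 GTPase, Rab5b, beside 9.4% of all genes. With only these groups in the fit, edgeR called 6 of 37, beside 18.3% of all genes. These 6 were Rab10, Rab15, Rab2a, Rab35, Rab5b and Rab8b. That last fit also filtered and scaled the 2 groups on their own, and which of these changes moved the count was not tested.

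BCS-vacuolated cells over normal cells gave 10 calls, 8 higher and 2 lower, where 20.7% of all genes were called, 11.2% higher and 9.51% lower. Besides Rab20, the calls that held in every alternative were Rab8a (0.55 ± 0.13, adjusted p = 0.00492), Rab11fip5 (1.20 ± 0.27, adjusted p = 0.00236) and Rab3gap2 (0.81 ± 0.17, adjusted p = 0.00147). Rab8a averaged 136 ± 29.5 CPM in BCS-vacuolated and 92.6 ± 2.54 CPM in normal cells. Rab5b (0.41 ± 0.12, adjusted p = 0.013), Rab10 (0.45 ± 0.14, adjusted p = 0.0234), Rab15 (0.56 ± 0.16, adjusted p = 0.0146) and Rab3d (1.40 ± 0.37, adjusted p = 0.00878) were higher, and Rab5c (-0.46 ± 0.12, adjusted p = 0.00916) and Rab3il1 lower. These 6 calls each ended without at least 1 of BCS-vacuolated replicates 1 and 3 and normal replicates 1, 2 and 3 (adjusted p 0.0515 to 0.166). Without BCS-vacuolated replicate 1, 5 members were called, beside 10.7% of all genes. Without BCS-vacuolated replicate 2, which correlated at 0.967 and 0.970 with its replicates where these correlated at 0.983, 12 were called, beside 22.2% of all genes.

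Sorted vacuolated cells over normal cells gave 13 calls, 10 higher and 3 lower, where 25.9% of all genes were called, 14.4% higher and 11.5% lower. Those that held in every alternative were Rab14 (0.93 ± 0.17, adjusted p = 0.000231), Rab1a (0.68 ± 0.11, adjusted p = 6.78e-05), Rab22a (0.77 ± 0.19, adjusted p = 0.00365) and the fall of Rab3il1. Rab4a (0.68 ± 0.19, adjusted p = 0.0122), Rab8b (0.54 ± 0.16, adjusted p = 0.0141), Rab9a (0.74 ± 0.22, adjusted p = 0.0154), Rab15 (0.45 ± 0.16, adjusted p = 0.0392), Rab2a (0.35 ± 0.12, adjusted p = 0.0393), Rab3ip (0.51 ± 0.13, adjusted p = 0.00631) and Rab11fip5 (0.99 ± 0.27, adjusted p = 0.00742) were also higher, and Rab5c (-0.42 ± 0.12, adjusted p = 0.013) and Rab11fip4 (-1.32 ± 0.47, adjusted p = 0.0375) lower. The calls of Rab11fip4, Rab15, Rab2a, Rab3ip, Rab4a, Rab5c, Rab8b and Rab9a ended without at least 1 of normal replicates 1, 2 and 3 and sorted vacuolated replicates 1, 2 and 3 (adjusted p 0.0502 to 0.248), and with the most abundant pair of genes removed and libraries thinned those of Rab11fip5 (0.061), Rab3ip (0.0879) and Rab8b (0.0617) ended. Without normal replicate 1, or without sorted replicate 3, 8 members were called, beside 18.7 and 20.1% of all genes in that order.

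Sorted against unsorted CHIR-vacuolated cells gave 8 calls, all higher with the sort, where 11.7% of all genes were called, 6.69% higher and 5.05% lower in sorted cells. Rab1a averaged 241 ± 9.41 CPM in sorted and 147 ± 6.58 CPM in CHIR-vacuolated cells (0.72 ± 0.11, adjusted p = 9.95e-05), and Rab14 93.2 ± 12.3 and 51.1 ± 6.41 CPM (0.87 ± 0.16, adjusted p = 0.00103). Rab4a (0.95 ± 0.20, adjusted p = 0.00214) and Rab2a (0.70 ± 0.12, adjusted p = 0.000495) were higher too. These 4 held in every alternative, whereas Rab11fip3, Rab11fip5, Rab22a and Rab5if lost their calls without at least 1 of CHIR-vacuolated replicates 1, 2 and 3 and sorted vacuolated replicates 1, 2 and 3 (adjusted p 0.0537 to 0.176). With the most abundant pair of genes removed and libraries thinned, those of Rab11fip3 (0.13), Rab11fip5 (0.225) and Rab22a (0.057) ended. Mitochondrially encoded genes took 6.76 to 8.91% of the counts outside the top pair in sorted and 2.88 to 4.08% in CHIR-vacuolated cells, and the endoderm markers summed to 6528 to 8613 CPM in sorted and 5054 to 6069 CPM in CHIR-vacuolated cells. Their part in these calls was not tested. Leaving out CHIR-vacuolated replicate 3 left 4 calls, beside 7.35% of all genes, and leaving out sorted replicate 2 or 3 left 5, beside 6.17 and 7.85%.

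CHIR-vacuolated over BCS-vacuolated cells gave 11 calls, 3 higher and 8 lower, where 13.2% of all genes were called, 5.83% higher and 7.4% lower. Rab3ip was higher (0.77 ± 0.13, adjusted p = 0.000405) and Rab11fip5 lower (-1.10 ± 0.26, adjusted p = 0.00563), and these 2 held in every alternative. Rab11a (0.55 ± 0.14, adjusted p = 0.0092) and Rab35 (0.41 ± 0.13, adjusted p = 0.0337) were higher, and Rab11b was lower (-0.55 ± 0.18, adjusted p = 0.0399), so the paralogs Rab11a and Rab11b were called in opposite directions. The calls of Rab11a, Rab11b, Rab11fip1, Rab20, Rab35, Rab3d, Rab3gap2, Rab7a and Rab8a ended without at least 1 of BCS-vacuolated replicates 1, 2 and 3 and CHIR-vacuolated replicates 1, 2 and 3 (adjusted p 0.052 to 0.242). The count was 3 without BCS-vacuolated replicate 1 or 3 (6.3 and 8.4% of all genes), 5 without CHIR-vacuolated replicate 2 or 3 (6.84 and 9.77%) and 6 without CHIR-vacuolated replicate 1 (7.36%).

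Serum vesicles over CHIR-vacuolated cells, which also received Chir99021, gave 24 calls among the 48 members, 19 higher and 5 lower, and 29 among all 53, where 58% of all genes were called, 30.3% higher and 27.6% lower. Rab11a (1.03 ± 0.13, adjusted p = 5.31e-07), Rab27a (1.65 ± 0.22, adjusted p = 7.66e-07), Rab3d (2.22 ± 0.33, adjusted p = 3.37e-06), Rab29 (1.91 ± 0.37, adjusted p = 0.000107) and Rab11b (1.00 ± 0.18, adjusted p = 3.70e-05) were higher. The lower members were Rab3il1 (-2.46 ± 0.22, adjusted p = 1.36e-09), Rab20 (-1.05 ± 0.23, adjusted p = 0.000324), Rab31 (-1.19 ± 0.25, adjusted p = 0.000283), Rab5c (-0.62 ± 0.12, adjusted p = 0.000145) and Rab35 (-0.56 ± 0.13, adjusted p = 0.000777). Leaving out 1 library ended the calls of Rab11fip2, Rab1a, Rab2b, Rab3gap1, Rab43, Rab4a and Rab5b, for at least 1 of CHIR-vacuolated replicates 1, 2 and 3 and serum vesicle replicates 1, 2 and 3 (adjusted p 0.0501 to 0.322).

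Other genes of the Rab cycle moved in both directions. Of 7 tested genes of Rab prenylation and GDP dissociation inhibition, 5 rose and 2 fell in serum-free vesicles, and 3 rose and 2 fell in serum vesicles, against normal cells. Gdi2, a GDP dissociation inhibitor, averaged 50.2 CPM in serum-free and 43.8 CPM in serum vesicles against 80.2 CPM in normal cells, and fell in both (log2 fold change -0.68 and -0.88, in that order). Rabggtb, a subunit of the Rab prenylating enzyme, fell (log2 fold change -0.58 and -0.88 in the same order), and Rabac1, a Rab acceptor, rose (1.71 and 1.35).

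In the lists below, genes tested only because of their vesicle counts are left out of the counts, 1 GAP, 1 GEF and 6 effectors. Of 32 GAPs and TBC-domain relatives, 11 rose and 4 fell in serum-free vesicles and 15 rose and 6 fell in serum vesicles. Tbc1d24 averaged 65.7 CPM in serum-free and 63.2 CPM in serum vesicles against 6.13 CPM in normal cells, log2 fold changes of 3.42 and 3.36. Evi5l (2.37 and 2.43), Tbc1d25 (2.44 and 2.65) and Rabgap1 (0.59 and 1.47) rose as well, in serum-free and serum vesicles. Of 42 GEFs, 14 rose and 8 fell in serum-free vesicles and 14 rose and 9 fell in serum vesicles. Rabgef1, which activates Rab5, had log2 fold changes of 1.43 and 1.79 in serum-free and serum vesicles, and Sbf2 had 1.68 and 1.44. The TRAPP complex subunits Trappc6a (2.50 and 1.90) and Trappc12 (0.81 and 0.77) rose too. Of 42 effectors, 11 rose and 13 fell in serum-free vesicles and 20 rose and 6 fell in serum vesicles. Optn, which binds Rab8, averaged 13.4 CPM in serum-free and 16.6 CPM in serum vesicles against 2.43 CPM in normal cells (2.48 and 2.76). Myo5c, an unconventional myosin and one of the 6 effectors left out, averaged 3.11 CPM in serum-free and 8.36 CPM in serum vesicles against 0.303 CPM in normal cells. Mical2, an actin-oxidising enzyme, rose (1.01 and 1.34) and Micall2 fell (-1.75 and -1.57). The shares of these lists that were called were 46.9 to 100% in serum-free and 54.8 to 71.4% in serum vesicles. They stood beside 57.7 and 60.4% of all genes, a set not trimmed in this way.

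Motifs were searched on both strands of the 250 bases before each start for the 46 members with a RefSeq promoter. CACGTG, the element read by lysosome regulators of the TFEB family, lay in 3 of 46 (6.52%: Rab21, Rab31 and Rab3il1), against 5.79% of all 27457 promoters. CTTTGAT, a TCF/LEF motif of Wnt signalling, lay in 0 of 46, against 3.18% of all. AACCNGTT, read by epithelial grainyhead-like factors, lay in 2 of 46 (4.35%: Rab25 and Rab4a), against 1.65% of all. TGANTCA, the AP-1 motif, lay in 3 of 46 (6.52%: Rab34, Rab4b and Rab9a), against 6.36% of all. No member promoter held more than 1 of the 4 motifs. A match says only that the letters are present in the window.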

How the data were processed

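RNA from 18 samples of rat XENP cells, 3 in each of 6 groups, was sequenced with a strand-marking kit after removal of ribosomal RNA, per the labels' protocols. The submitters' processing notes name bcl2fastq, Trimmomatic 0.38, STAR 2.6.1 and the rn6 genome, and the counting step and annotation are not given in the sources used here. The authors deposited raw read counts per gene for each library, unstranded and for each strand; the strand column that matches the kit was used. In R 4.3.3, edgeR 4.0.16 (with limma 3.58.1) fitted all 18 libraries with 1 mean per group, after filterByExpr with a minimum count of 10 and TMM scaling. The quasi-likelihood test was adjusted by Benjamini-Hochberg over all 11503 genes tested, with a threshold of 0.05. DESeq2 1.42.0 was an alternative, and the scripts were tested on simulated data. The alternatives also changed scaling, filter, strand, replicate block, passage, thinning, the libraries in the fit and single libraries. Members and lists were chosen with earlier results of these data known. Counts in comparisons with vesicles are also given without the 5 members that reached the minimum or the filter only through the vesicle libraries, a choice made after seeing the data. Every member may be named, and values in each library are given for the 16 members with the smallest p in the test of any difference and for paralogs called in opposite directions. Intervals on counts are exact 95% intervals that cover counting error only, and a floor of 3 counts over a group stands for 0. Promoter sequences are from RefSeq GRCr8 and were matched by symbol. No protein sequences were used here.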

Additional observations from a re-analysis of the deposited data

Results flagged for a closer look

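Reads on the strand opposite to the one counted were looked at for groups in which every library exceeded the highest normal library, with at least 50 such counts over the group and at least 10% of both-strand counts. A pair of Rab genes met this, each in 1 group. Only the Rab members were searched, so the share of all genes that would meet it is not known. At Rab26, a secretory granule GTPase, the other strand averaged 58.5 CPM in CHIR-vacuolated cells (54.7 to 61.2 CPM over 3 libraries) and 47.7 CPM in normal cells (41.4 to 51.6 CPM). At Rab40c, a ubiquitin ligase adaptor, it averaged 3.07 CPM in serum vesicles (1.95 to 3.80 CPM) and 1.38 CPM in normal cells (0.897 to 1.73 CPM). In both cases the libraries of the groups did not overlap. Rab40c overlaps Mettl26 in RefSeq GRCr8. Other groups went the opposite way: Rab26 averaged 21.9 CPM in serum-free and 10.5 CPM in serum vesicles on that strand, below the normal cells, and Rab24 averaged 50.9 CPM in serum-free vesicles, 43.3 CPM in serum vesicles and 94.7 CPM in normal cells. Under those minimums, other members also exceeded normal cells without overlap, in vesicles and in vacuolated cells, among them Rab3gap2, Rab10, Rab3ip, Rab31 and Rab8a. Examples were Rab11fip3, at 0.804 CPM in serum-free and 0.762 CPM in serum vesicles against 0.0505 CPM, and Rab15 at 1.23 CPM in serum vesicles against 0.243 CPM. None of these differences was tested, and no origin of these reads was tested.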

How the results depend on the processing

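Of 152 member calls over the 9 comparisons, 97 were kept in every alternative that still tested the gene. A gene filtered out of an alternative was not scored there. Thinning tested 144 of the 152 calls, and fits of only the groups compared tested 142. The 152 include calls on the 5 members tested only through vesicles. With only the groups compared in the fit, the members called numbered 9 in CHIR-vacuolated against normal cells (2 with all libraries), 8 in serum-free against serum vesicles (15) and 13 in sorted against CHIR-vacuolated cells (8), and removing the most abundant pair of genes together with thinning, which left 50 members to test, gave 5 in the last. The shares of all genes called were 18.3, 11.4, 24.6 and 9.94%, in the same order. Without the 5 members tested only through vesicles, an alternative chosen after seeing the data, the calls were 24 for serum and 30 for serum-free vesicles against normal cells, 13 between the vesicles, 24 for serum vesicles against CHIR-vacuolated cells and 36 for any difference. Against normal cells, leaving out 1 library gave 2 to 3 calls for CHIR-vacuolated (4.3 to 5.35% of all genes), 5 to 12 for BCS-vacuolated (10.7 to 22.2%) and 8 to 11 for sorted cells (16.9 to 21.1%). It gave 30 to 34 for serum (53.9 to 59.2%) and 30 to 34 for serum-free vesicles (51.1 to 53.8%). In the other comparisons it gave 10 to 14 for serum-free against serum vesicles (14.6 to 25.7%), 4 to 6 for sorted against CHIR-vacuolated (5.79 to 8.13%) and 3 to 12 for CHIR- against BCS-vacuolated cells (6.3 to 16.6%). There were 26 to 31 calls for serum vesicles against CHIR-vacuolated cells (50.6 to 56.4%) and 39 to 45 for any difference (75.5 to 80.1%). The counts with vesicles include the 5 members tested only through them. Counted on both strands, Rab26 reversed to a log2 fold change of -1.0 in BCS-vacuolated, -0.81 in sorted, -1.93 in serum vesicles and -1.16 in serum-free vesicles against normal cells, to 0.76 between serum-free and serum vesicles and to -1.87 in serum vesicles against CHIR-vacuolated cells. Same-numbered libraries shared little deviation from their group means: 1 of 45 correlations exceeded 0.1 (range -0.230 to 0.104). Some of them share a passage: normal and CHIR-vacuolated replicates 1 (37) and 3 (51), and serum and serum-free vesicle replicates 1 (32) and 2 (35). So do sorted and serum vesicle replicates 3 (49), and BCS-vacuolated and serum-free vesicle replicates 3 (42). The correlations cannot show whether such samples were grown in parallel. Samples with different numbers can share a passage too, such as CHIR-vacuolated replicate 2 and BCS-vacuolated replicate 1 (41). Neither the correlations nor the replicate block match these. With the replicate block the calls in the order of the 5 comparisons with normal cells above were 2, 10, 11, 30 and 35, then 15, 8, 10 and 29, and 40 for any difference. These too include the 5 members tested only through vesicles. The shares of all genes called, in the same order, were 7.23, 19.8, 24.9, 59.9 and 57%, then 22.3, 10.7, 12.6 and 57.2%, and 77.8%. Over all genes, calls in CHIR-vacuolated against normal cells were 876, or 1856 with only those groups and 504 to 527 without 1 of some libraries. Calls fell to 1275 and 1530 of 2383 (BCS-vacuolated), 1982 of 2974 (sorted), 1725 of 2806 (serum-free against serum vesicles), 690 to 876 of 1350 (sorted against CHIR-vacuolated) and 748 to 983 of 1522 (CHIR- against BCS-vacuolated) without 1 of some libraries. With only the groups compared they were 1223 for serum-free against serum vesicles and 2576 for sorted against CHIR-vacuolated cells. The cause of these moves was not tested. Depth limits Rab3b, Rab19, Rab25, Rab37, Rab40b and Rab42, which had 1 to 4 counts in normal cells.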
